A study of Bos taurus with 88 samples.

Results

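The genes described here were the 4 cytokine genes TNF (ENSBTAG00000025471), IL1B (ENSBTAG00000001321), CXCL8 (ENSBTAG00000019716) and IL10 (ENSBTAG00000006685), chosen by name as a set of inflammatory cytokines out of 24616 genes counted in the whole blood of newborn calves. Blood from 22 calves was taken at 0, 48, 72 and 168 h of age, with every calf present at every age, and each of the 88 blood samples was sequenced as 1 RNAseq library. The calves were 8 Holstein dairy calves (H), 7 calves from Charolais × Limousin cows (CL) and 7 calves from Limousin × Friesian cows (LF). CL and LF calves were sired by Aberdeen Angus or Charolais bulls, so that breed stands for the cow in these calves. H calves were separated from the dam and received the colostrum of their own dam by oesophageal tube and later by teat feeder. The amount of colostrum fed to H calves was set as a share of body weight. H calves were penned singly at first and moved to a group pen with milk replacer before the last sample. CL and LF calves stayed with the dam and suckled. H calves and beef calves came from different farms, so breed, farm and separation from the dam cannot be told apart in a comparison of H with CL or LF calves, nor can feeding after 0 h. The blood sample at 0 h preceded the first feed in all groups, and the cows of all groups had been vaccinated before calving.

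Cytokines are secreted proteins by which leukocytes direct each other. TNF and IL1B are made early by monocytes, macrophages and neutrophils that sense microbes or tissue damage, and they activate endothelium, fever and the acute phase response. CXCL8, also called interleukin 8, is the chemokine that draws neutrophils out of the blood through the receptors CXCR1 and CXCR2, and TNF and IL1B are among its inducers. IL10 acts in the other direction: it limits the output of inflammatory cytokines from monocytes and macrophages. In blood, monocytes and neutrophils are known sources of these transcripts, and lymphocytes of IL10. In the RefSeq annotation of the assembly ARS-UCD2.0, TNF lies between the related cytokine genes LTB and LTA, IL10 lies next to IL19, IL1B next to IL37, and CXCL8 next to RASSF6. Coordinates are not given, because the counts were made on another assembly, UMD3.1.

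The libraries held 10023822 to 39304404 reads on genes (median 22595526.5), and 3 reads corresponded to 0.0763 to 0.2993 CPM, the reads of a gene scaled to a common library size. All 4 genes were above that limit in every library. TNF had 75 to 922 reads per library (median 384), IL1B 1044 to 12935 (median 4259.5), CXCL8 45 to 2293 (median 295.5) and IL10 15 to 180 (median 47), so that counting error was largest for IL10. All levels below are CPM after TMM scaling across the 88 libraries. In H calf 6 the 10 most abundant genes took 36.13% of reads at 0 h, 44.41% at 48 h and 47.3% at 72 h, whereas the median over H calves was 8.53% at 0 h, 10.825% at 48 h and 11.555% at 72 h. Without this calf, the only call within H calves or between H and beef calves that changed was that of IL10 at 168 h against 0 h, given below. Markers of blood cell types were not examined, because no table used here pairs bovine Ensembl identifiers with symbols. In whole blood, fewer cells of a type and less RNA per cell cannot be told apart.

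CXCL8 had the largest log2 change of the 4 genes between 0 h and 48 h in each breed, and it fell. In H calves its level ran from 39.1 to 89.0 CPM at 0 h (median 67.3) and from 10.7 to 28.8 CPM at 48 h (median 15.2). The ranges did not overlap, and the level was lower at 48 h in 8 of 8 calves. In CL calves it ran from 13.01 to 56.0 CPM at 0 h (median 29.5) and from 1.69 to 7.69 CPM at 48 h (median 3.97), again without overlap and lower in 7 of 7 calves. In LF calves it ran from 12.1 to 62.6 CPM at 0 h (median 35.8) and from 2.79 to 28.6 CPM at 48 h (median 7.88). The ranges of LF calves overlapped, and each of the 7 calves was lower at 48 h than at 0 h.

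A gene was called changed when the edgeR quasi-likelihood test gave a Benjamini-Hochberg adjusted p-value under 0.05 over all genes tested together with a fold change of at least 1.5. From 0 h to 48 h, CXCL8 fell by 1.97 on the log2 scale in H calves (SE 0.21, adjusted p = 2.32e-05, n = 8 calves). It was the only 1 of the 4 cytokine genes called lower there, where 2.97% of the 12508 genes tested were called lower, and its fall ranked 50 by size. The main fit took samples of different ages as unpaired, here and in all comparisons of ages. A fit that blocked on the calf called 655 genes lower in H calves in place of 372. The fall was 2.85 in CL calves (SE 0.39, adjusted p = 0.000124), where 1 of the 4 genes was called lower against 7.86% of 12852 genes, and it ranked 25 by size. In LF calves CXCL8 fell by 1.72 (SE 0.48, adjusted p = 0.0217), where 1 of the 4 genes was called lower against 4.52% of 12794 genes. Its fall ranked 117 by size in LF calves. Without H calf 6, the fall in H calves was 1.98 (adjusted p = 0.000119). The LF call was lost when calf 3, 4 or 6 was left out, with adjusted p-values of 0.0563, 0.0555 and 0.0586.

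CXCL8 was still lower at 168 h than at 0 h. From 48 h to 72 h the edgeR log2 changes of CXCL8 were −0.14 ± 0.22 (SE) in H calves, 0.38 ± 0.41 in CL and 0.12 ± 0.54 in LF, and none was called. From 72 h to 168 h they were −0.13 ± 0.25 in H calves, 0.31 ± 0.48 in CL and −0.15 ± 0.49 in LF, none called. At 168 h the level ran from 6.45 to 25.5 CPM in H calves (median 13.1), from 1.77 to 12.3 CPM in CL calves (median 9.22) and from 3.03 to 19.0 CPM in LF calves (median 11.5). All 22 calves were below their own level at 0 h. The 168 h ranges of H and of CL calves did not overlap those at 0 h, and the LF ranges did. In the edgeR test of 168 h against 0 h, CXCL8 was lower by a log2 change of −2.24 in H (adjusted p = 3.89e-06), −2.15 in CL (adjusted p = 0.00271) and −1.75 in LF calves (adjusted p = 0.00673). Over the 4 ages, CXCL8 was highest at 0 h in 21 of 22 calves. The exception was LF calf 7, whose CXCL8 level in the order of age was 12.1, 7.88, 19.5 and 11.5 CPM.

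**Figure D1:**
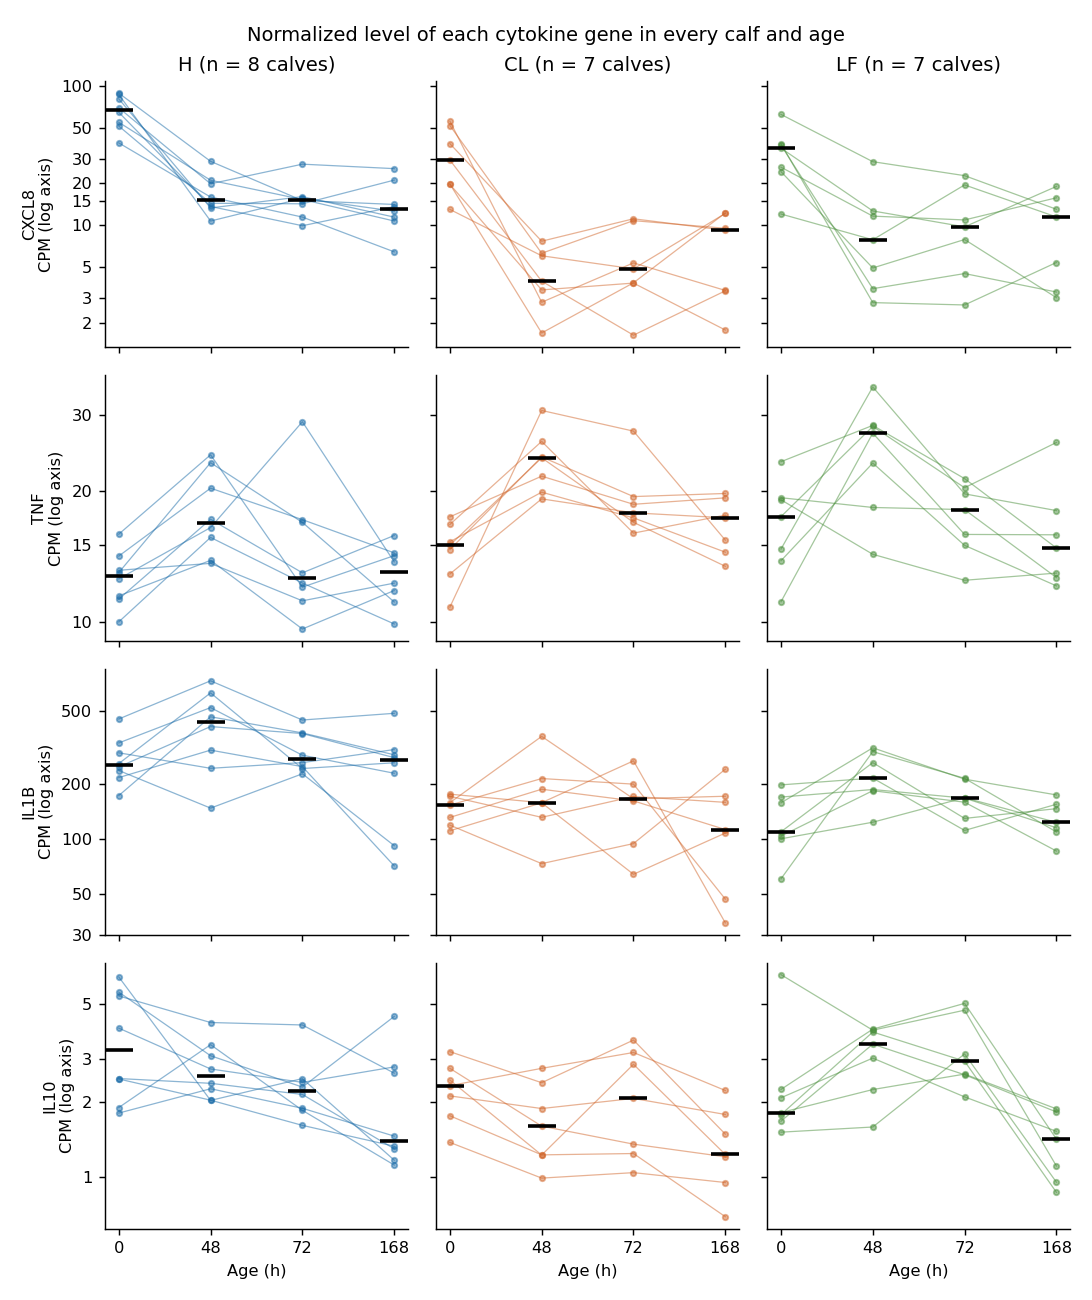
Level of CXCL8, TNF, IL1B and IL10 (rows, CPM on log axes) at 0, 48, 72 and 168 h in each H, CL and LF calf (columns), where a thin line joins the points of 1 calf and a black bar marks the median of the group. CXCL8 was lower at 48 h than at 0 h in every calf, and TNF was highest at 48 h in 19 of 22 calves. The median IL1B of H calves was above those of CL and LF calves at each age, while H and beef ranges overlapped.

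TNF was called higher at 48 h than at 0 h in CL calves. In CL calves it ran from 10.8 to 17.5 CPM at 0 h (median 15.03) and from 19.2 to 30.7 CPM at 48 h (median 23.9), so that the ranges did not overlap. It rose by 0.67 on the log2 scale there (edgeR, SE 0.12, adjusted p = 0.00071) and was higher in 7 of 7 calves. TNF was the 1 gene of 4 called higher in CL calves, against 7.03% of genes tested. Without CL calf 2, which had the lowest level at 0 h and the highest at 48 h, the log2 change was 0.53 (adjusted p = 0.00129), below the fold threshold.

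In H calves TNF ran from 10.0 to 15.9 CPM at 0 h (median 12.8) and from 13.6 to 24.3 CPM at 48 h (median 16.9). It was higher at 48 h in 8 of 8 calves, with a log2 change of 0.50 (edgeR, SE 0.14, adjusted p = 0.0276). This corresponded to 1.41-fold, which did not reach the fold threshold of 1.5. In H calf 4 the rise was from 13.15 to 13.64 CPM, and without TMM scaling the levels were 13.76 and 13.59 CPM. The highest level at 48 h, in H calf 6, was 10.77 CPM without TMM scaling. In LF calves TNF ran from 11.1 to 23.4 CPM at 0 h (median 17.5) and from 14.3 to 34.8 CPM at 48 h (median 27.2), and 5 of 7 calves were higher at 48 h. The log2 change was 0.55 (edgeR, SE 0.19, adjusted p = 0.0595), and without calf 1 or calf 5, the calves that were lower at 48 h, it was 0.68 (adjusted p = 0.0323) or 0.66 (adjusted p = 0.0432), both called. Of the 7 fits without 1 LF calf, just these 2 gave a call. Over the 7 fits the smallest log2 change was 0.42 and the largest edgeR adjusted p was 0.188.

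At 72 h the TNF level was below the level at 48 h in 7 of 8 H, 7 of 7 CL and 7 of 7 LF calves. The log2 changes from 48 h to 72 h were −0.26 ± 0.21 (SE) in H, −0.30 ± 0.13 in CL and −0.50 ± 0.18 in LF calves, with edgeR adjusted p-values of 0.916, 0.188 and 0.42. None of the 4 genes was called in this comparison in any breed by edgeR or by DESeq2. At an unadjusted p under 0.05, edgeR had 0 of the 4 genes in H, 1 in CL (TNF) and 2 in LF calves (TNF and IL1B). The share of all genes at that cutoff was 6.31% in H, 22.4% in CL and 8.32% in LF calves. Of all genes, edgeR called 0% in H, 0.00782% in CL and 0% in LF calves from 48 h to 72 h. With the calf as a block it called 0% in H, 4.89% in CL and 1.23% in LF calves, and DESeq2 called 0.0823%, 2.91% and 0.967%, none of the 4 genes among them. At 168 h TNF was 12.9 ± 1.97 CPM (mean ± SD) in H, 16.8 ± 2.40 in CL and 16.1 ± 4.82 in LF calves. Its log2 change from 0 h to 168 h was 0.01 ± 0.11 (SE) in H, 0.18 ± 0.11 in CL and −0.09 ± 0.19 in LF calves, none called.

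IL1B was the most abundant of the 4 transcripts in reads, and its time course was less uniform among calves. In LF calves it ran from 60.5 to 197.3 CPM at 0 h (median 109.3) and from 123.3 to 314.4 CPM at 48 h (median 214.8), with overlapping ranges, and was higher in 7 of 7 calves. It rose by 0.82 on the log2 scale (edgeR, SE 0.25, adjusted p = 0.0365) and was the 1 of 4 genes called higher in LF calves, against 7.37% of genes tested. The call was lost when calf 1, 2, 3 or 7 was left out, with adjusted p-values of 0.0801, 0.0753, 0.106 and 0.0979. In H calves IL1B ran from 172.4 to 452.1 CPM at 0 h (median 252.5) and from 147.2 to 730.9 CPM at 48 h (median 437.8), and 6 of 8 calves were higher at 48 h. The log2 change was 0.63 ± 0.27 (SE, edgeR adjusted p = 0.164). In CL calves IL1B ran from 110.7 to 175.5 CPM at 0 h (median 152.995) and from 73.2 to 363.2 CPM at 48 h (median 157.7), and 4 of 7 calves were higher at 48 h (log2 change 0.32 ± 0.26, adjusted p = 0.361).

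IL1B was highest at 48 h in 16 of 22 calves. No change of IL1B from 48 h to 72 h, from 72 h to 168 h or from 0 h to 168 h was called in any breed. At 168 h its spread was wide in H and CL calves. H calf 4 had 71.2 CPM and H calf 5 had 91.8 CPM, whereas the other H calves lay between 228.4 and 485.5 CPM. CL calf 5 had the highest IL1B of its group at 72 h, 266.9 CPM, and the lowest at 168 h, 34.7 CPM. CL calf 2 moved the other way, from 94.2 CPM at 72 h to 240.2 CPM at 168 h.

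IL10, the inhibitory cytokine of the 4, had the lowest read counts and was called lower at 168 h. In LF calves it ran from 2.10 to 5.01 CPM at 72 h (median 2.93) and from 0.866 to 1.88 CPM at 168 h (median 1.42). The ranges did not overlap, and 7 of 7 calves were lower at 168 h. It fell by 1.28 on the log2 scale (edgeR, SE 0.25, adjusted p = 0.00518), the 1 gene of 4 called lower in this comparison, against 10.6% of 12738 genes. In CL calves IL10 ran from 1.04 to 3.56 CPM at 72 h (median 2.07) and from 0.691 to 2.23 CPM at 168 h (median 1.23). All 7 CL calves were lower, but the ranges overlapped and the log2 change of −0.69 ± 0.33 (SE) had an adjusted p of 0.214. In H calves it ran from 1.61 to 4.10 CPM at 72 h (median 2.23) and from 1.12 to 4.44 CPM at 168 h (median 1.40), lower in 6 of 8 calves, with a log2 change of −0.23 ± 0.30 (adjusted p = 0.658). Of the 4 genes 0 were called in H calves, where 9.18% of genes were, and 0 in CL calves, where 0.0157% were. With the calf as a block, edgeR called 5.72% of genes in CL calves, and DESeq2 called 4.94%, again without any of the 4. In both breeds 0 of the 4 passed an unadjusted p under 0.05 in edgeR, where 30.7% of all genes did in H and 23.8% in CL calves. DESeq2 called 0 of the 4 in both breeds, and 9.98% of all genes in H calves.

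Against 0 h, IL10 at 168 h was lower in 8 of 8 H, 7 of 7 CL and 5 of 7 LF calves. At 0 h it ran from 1.81 to 6.41 CPM in H (median 3.24), from 1.38 to 3.1999 in CL (median 2.33) and from 1.51 to 6.54 in LF calves (median 1.82), and the ranges overlapped those at 168 h in every breed. It fell by 0.90 on the log2 scale in H (edgeR, SE 0.35, adjusted p = 0.0459) and by 0.75 in CL calves (SE 0.26, adjusted p = 0.0375). In LF calves the log2 change was −0.90 ± 0.34 with an adjusted p of 0.0639, and DESeq2 called it (adjusted p = 0.0384). With CXCL8, 2 of the 4 genes were called lower from 0 h to 168 h in H calves, against 12.8% of genes tested, 2 in CL calves, against 8.35%, and 1 in LF calves, against 8.33%. The IL10 calls stood close to the threshold. The H call was lost when any calf but calf 3 was left out (adjusted p from 0.0533 to 0.168 without calves 1, 2, 4, 5, 6, 7 and 8 in turn), and the CL call without calf 2, 3, 5, 6 or 7 (adjusted p from 0.0512 to 0.107). Between 0 h and 48 h IL10 was lower in 6 of 8 H and 6 of 7 CL calves and higher in 6 of 7 LF calves, with log2 changes of −0.44 ± 0.28 (SE), −0.42 ± 0.25 and 0.31 ± 0.34, none called.

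**Figure D2:**
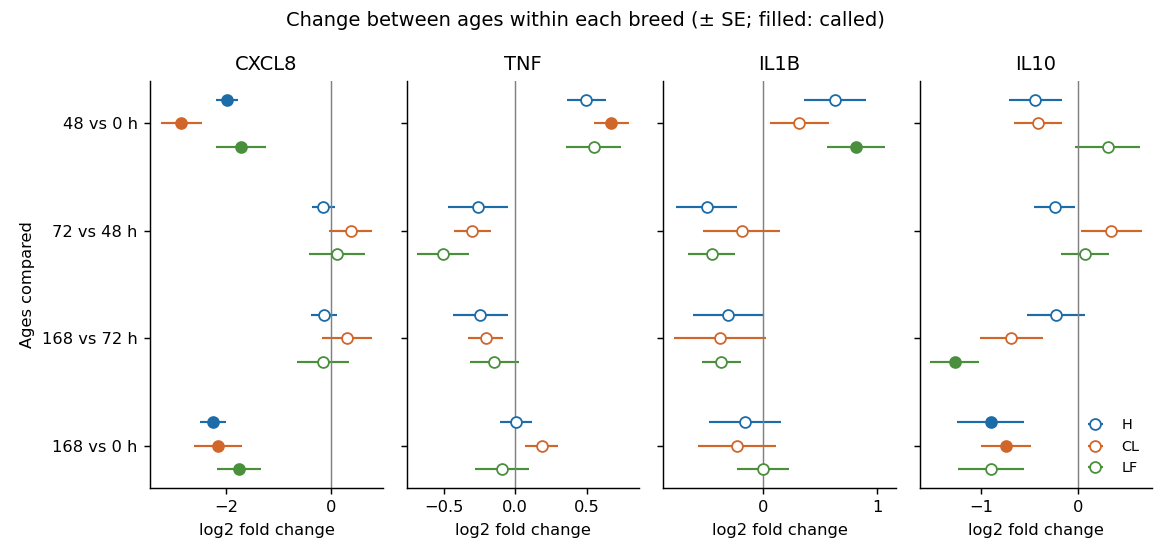
Log2 fold change of each gene between 2 ages within H, CL and LF calves from edgeR, with bars of ± 1 SE and filled points for called changes. CXCL8 was called lower at 48 h and at 168 h against 0 h in all breeds, TNF was called higher at 48 h in CL calves and IL1B in LF calves, and IL10 was called lower at 168 h against 72 h in LF calves and against 0 h in H and CL calves.

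The changes were next averaged over the 3 breeds in 1 edgeR fit per pair of ages, a comparison added after the changes within breeds had been seen. From 0 h to 48 h CXCL8 was lower by a mean log2 change of −2.18 (SE 0.22, adjusted p = 2.34e-10), 1 of 4 genes against 6.88% of 13494 genes called lower. IL1B was higher by 0.59 (SE 0.16, adjusted p = 0.0028), 1 of 4 genes against 8.39% called higher. TNF was higher by 0.58 (SE 0.09, adjusted p = 1.5e-06), and its fold of 1.491 fell short of the threshold. With the calf as a block, the log2 change of IL1B was 0.52 (adjusted p = 0.00401), below the fold threshold. From 48 h to 72 h none of the 4 genes was called, where 1.45% of 13381 genes were (2.78% with the calf as a block). The log2 change was −0.37 for TNF (edgeR adjusted p = 0.0432) and −0.39 for IL1B (adjusted p = 0.192). These were the 2 genes of the 4 with an unadjusted p under 0.05, a cutoff passed by 18.1% of all genes. DESeq2 called 0 of the 4, and 1.96% of all genes. From 72 h to 168 h IL10 fell by 0.73 (SE 0.17, adjusted p = 0.000836), 1 of 4 genes against 10.9% of 13356 genes called lower. From 0 h to 168 h CXCL8 fell by 2.04 (adjusted p = 8.62e-10) and IL10 by 0.84 (adjusted p = 0.000262), 2 of 4 genes against 11.4% of 13485 genes called lower. TNF, with a mean log2 change of 0.04 ± 0.08 (SE), and IL1B, with −0.12 ± 0.18, were not called between 0 h and 168 h.

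IL1B was called higher in H than in beef calves at all 4 ages. At 0 h, before the first feed, IL1B ran from 172.4 to 452.1 CPM in H calves (median 252.5) and from 60.5 to 197.3 CPM in the 14 beef calves (median 142.0), and 7 of 8 H calves lay above every beef calf. The log2 difference was 1.02 (edgeR, SE 0.18, adjusted p = 0.000215). At 48 h IL1B was 431.5 ± 196 CPM (mean ± SD) in H and 204.7 ± 80.6 in beef calves, a log2 difference of 1.08 (SE 0.26, adjusted p = 0.00447), with 5 of 8 H calves above every beef calf. At 72 h the medians were 273.8 and 166.3 CPM and the log2 difference was 0.92 (SE 0.19, adjusted p = 0.00488). At 168 h the means were 251.4 ± 130 and 127.0 ± 53.2 CPM and the log2 difference was 0.99 (SE 0.31, adjusted p = 0.0247). Without H calf 6, which stood apart in its most abundant genes, the log2 differences from the first to the last age were 1.07, 1.08, 0.87 and 0.95, all called. The call at 168 h was lost without H calf 2, the calf with the highest IL1B at that age (log2 difference 0.78, adjusted p = 0.0699). The 4 comparisons share their calves, so that the ages are not independent of each other.

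CXCL8 was also higher in H calves. At 0 h it was 67.1 ± 17.9 CPM (mean ± SD) in H and 33.3 ± 15.6 in beef calves, a log2 difference of 1.02 (edgeR, SE 0.26, adjusted p = 0.00394), and all 8 H calves lay above the median of the beef calves. At 48 h the means were 17.2 ± 5.80 and 7.43 ± 6.93 CPM and the log2 difference was 1.33 (SE 0.34, adjusted p = 0.00623). IL1B and CXCL8 made 2 of 4 genes called higher in H calves at 0 h, against 12% of 12995 genes, and 2 of 4 at 48 h, against 9.51%. At 72 h CXCL8 was 15.7 ± 5.25 against 8.54 ± 6.24 CPM, with a log2 difference of 0.95 ± 0.33 (SE) and an adjusted p of 0.0541, and DESeq2 called it (adjusted p = 0.0309). It was also called by edgeR without CL calf 5 or 7, LF calf 5 or 7, or H calf 5 (adjusted p from 0.0319 to 0.0413). At 168 h the log2 difference was 0.74 ± 0.36 (adjusted p = 0.131). IL1B alone was called at these ages, 1 of 4 genes against 4.53% of genes called higher in H calves at 72 h and 6.03% at 168 h.

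The mean TNF level was lower in H than in beef calves at every age, and no difference reached the fold threshold. TNF was 12.7 ± 1.84 CPM (mean ± SD) in H and 15.9 ± 3.39 in beef calves at 0 h, 18.1 ± 4.08 and 24.3 ± 5.42 at 48 h, 15.2 ± 6.16 and 18.3 ± 3.51 at 72 h, and 12.9 ± 1.97 and 16.4 ± 3.68 at 168 h. The ranges overlapped at each age. The log2 differences were −0.31, −0.43, −0.27 and −0.34 in the order of age, with edgeR adjusted p-values of 0.044, 0.03, 0.267 and 0.0424. IL10 was not called at any age. Its log2 differences of H against beef calves were 0.64 at 0 h (edgeR adjusted p = 0.0706), 0.25 at 48 h (adjusted p = 0.366), −0.19 at 72 h (adjusted p = 0.608) and 0.57 at 168 h (adjusted p = 0.104). LF calf 6 had an IL10 level of 6.54 CPM at 0 h, whereas the other LF calves lay at or below 2.25 CPM. Without that calf the log2 difference at 0 h was 0.87 (adjusted p = 0.00391) and IL10 was called; it was also called without H calf 5 (adjusted p = 0.04) or H calf 7 (adjusted p = 0.0473).

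**Figure D3:**
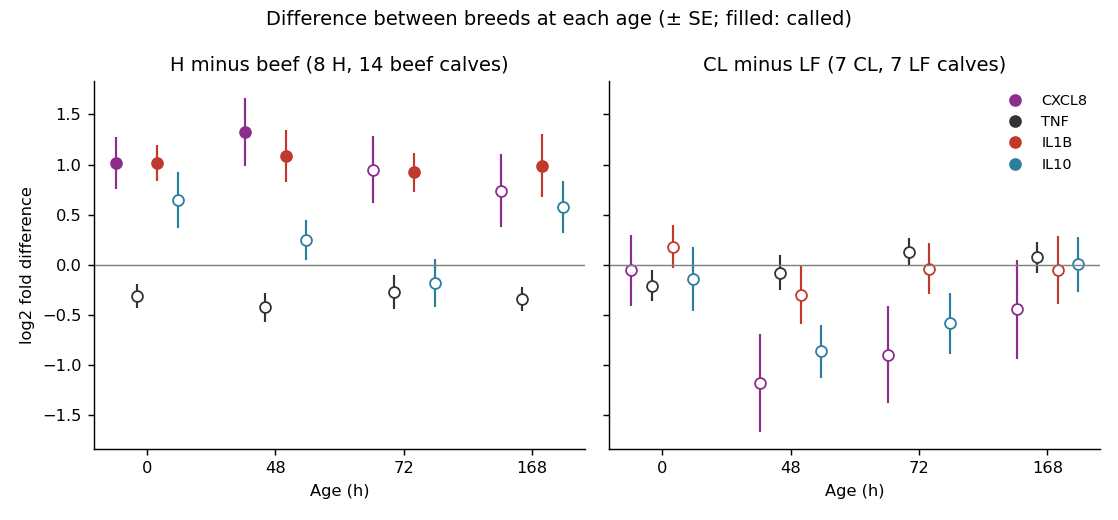
Log2 fold difference of each gene between H and beef calves (left) and between CL and LF calves (right) at 0, 48, 72 and 168 h from edgeR, with bars of ± 1 SE and filled points for called differences. IL1B was called higher in H calves at all ages and CXCL8 at 0 h and 48 h, while no gene was called between CL and LF calves.

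None of the 4 genes was called between CL and LF calves by edgeR at any age, where 0% of all genes were called. At 48 h CXCL8 ran from 1.69 to 7.69 CPM in CL calves (median 3.97) and from 2.79 to 28.6 CPM in LF calves (median 7.88), a log2 difference of −1.18 ± 0.49 (SE, unadjusted p = 0.02945 and adjusted p = 0.178 in edgeR). IL10 ran from 0.989 to 2.74 CPM in CL (median 1.602) and from 1.59 to 3.94 CPM in LF calves (median 3.43) at that age, and 3 of 7 CL calves lay below every LF calf. Its log2 difference was −0.87 ± 0.27 (SE, adjusted p = 0.107), it was called by DESeq2 (adjusted p = 0.0338), and edgeR called it without LF calf 5 (adjusted p = 0.0234). CXCL8 and IL10 were the 2 genes with an unadjusted p under 0.05 at 48 h, and 0 of 4 had 1 at 0, 72 or 168 h, where DESeq2 called 0 as well. TNF and IL1B differed between CL and LF calves by log2 values from −0.21 to 0.13 and from −0.31 to 0.18 over the 4 ages. Among all genes, 2908 of 12838 (22.7%) had an unadjusted p under 0.05 at 48 h in edgeR. At 0 h 1277 genes (10%) had one, at 72 h 563 (4.44%) and at 168 h 243 (1.9%). DESeq2 called 91 genes higher and 489 lower in CL calves at 48 h.

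Whether the changes differed between breeds was tested as an interaction. The log2 change of CXCL8 from 0 h to 48 h in CL calves minus that in LF calves was −1.12 ± 0.62 (SE), with an edgeR adjusted p of 0.412. H minus beef calves gave 0.31 ± 0.45 (adjusted p = 1). For TNF in that interval the difference was 0.13 ± 0.24 between CL and LF calves and −0.12 ± 0.19 between H and beef calves. For IL1B these differences were −0.49 ± 0.37 and 0.05 ± 0.34. From 72 h to 168 h, the difference for IL10 was 0.75 ± 0.36 between H and beef calves (edgeR unadjusted p = 0.04423, adjusted p = 0.37) and 0.59 ± 0.42 between CL and LF calves (adjusted p = 0.999). By edgeR and by DESeq2, 0 of the 4 genes were called in any of the 4 interactions, and edgeR called 0% of all genes. From 0 h to 48 h, 13.7% of genes had an unadjusted edgeR p under 0.05 between CL and LF calves and 3.54% between H and beef calves. From 72 h to 168 h these shares were 1.54% and 13.1%. DESeq2 called from 0 to 43 genes in 1 direction. With the calf as a block 1 gene was called in each interaction from 0 h to 48 h. The IL10 difference between H and beef calves from 72 h to 168 h was the 1 value of 16 (4 genes in 4 interactions) with an unadjusted p under 0.05. A change called in 1 breed and not in another was therefore not shown to differ between them.

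Ratios of 2 genes within a library do not depend on how libraries are scaled to each other. The count ratio of CXCL8 to TNF had a median of 5.32 in H calves at 0 h and of 0.90 at 48 h. The median went from 1.83 to 0.183 for CL calves, while LF calves had 1.53 and then 0.227. It was lower at 48 h in all 22 calves, by a mean log2 change of −2.47 ± 0.754 (SD) in H calves, −3.51 ± 1.197 in CL and −2.53 ± 1.601 in LF. IL1B to CXCL8 had a median of 3.67 in H, 4.55 in CL and 4.39 in LF calves at 0 h, and 27.6, 43.4 and 37.7 at 48 h, and was higher at 48 h in all 22 calves. By 168 h its medians were 17.0, 16.6 and 9.50. TNF to IL10, an inflammatory against an inhibitory transcript, was higher at 168 h than at 0 h in 8 of 8 H, 6 of 7 CL and 5 of 7 LF calves. The direction depended on the inflammatory gene. CXCL8 to IL10 was lower at 168 h than at 0 h in 8 of 8 H, 6 of 7 CL and 6 of 7 LF calves. IL1B to IL10 was higher at 168 h in 5 of 8 H, 5 of 7 CL and 7 of 7 LF calves. These ratios are of read counts and are not corrected for the length of the transcripts, so they say nothing of which transcript had more molecules.

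**Figure D4:**
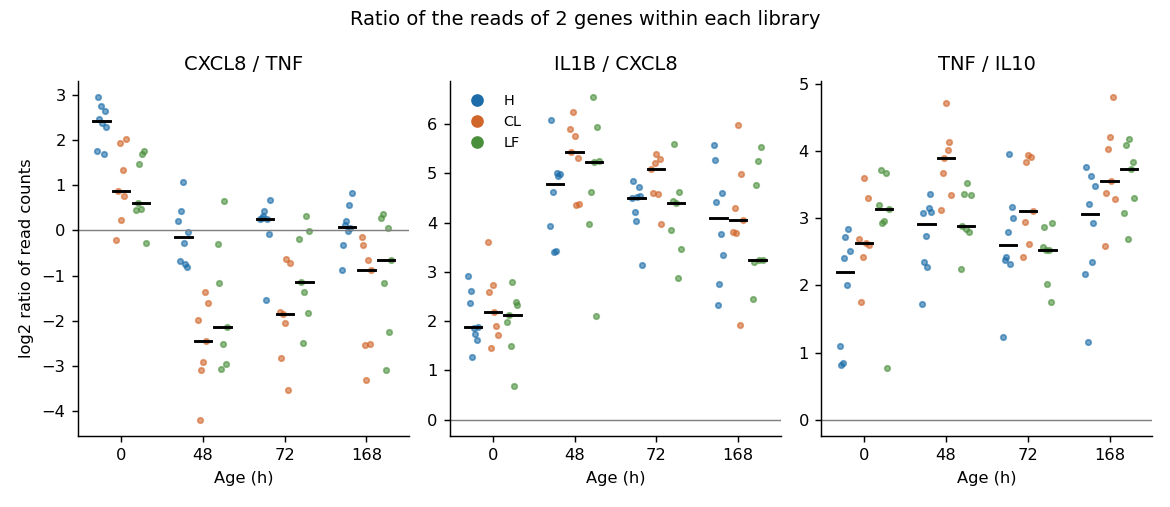
Log2 ratio of the read counts of CXCL8 to TNF, IL1B to CXCL8 and TNF to IL10 in each library at 0, 48, 72 and 168 h, with 1 point per calf, coloured by breed, and black bars for medians. CXCL8 to TNF was lower and IL1B to CXCL8 was higher at 48 h than at 0 h in all 22 calves.

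In the order of the 12 groups of breed and age by mean log2 CPM, few neighbours stood apart by more than the larger of their SDs. For CXCL8 the order began with H, LF and CL calves at 0 h, and the gaps from H to LF calves at 0 h (1.08 against an SD of 0.74) and from CL calves at 0 h to H calves at 48 h (0.81 against 0.79) exceeded the spread. For TNF the order began with LF and CL calves at 48 h, and the gap from CL calves at 48 h to CL calves at 72 h (0.31 against 0.26) did. For IL1B the order began with H calves at 48, 72 and 0 h and ended with CL calves at 168 h, and for IL10 it began with H calves at 0 h and ended with LF and CL calves at 168 h. No neighbours in the order of IL1B or IL10 differed beyond their spread.

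The genes also differed in how much calves of 1 group varied. The SD of log2 CPM within a group, pooled over the 12 groups, was 0.82 for CXCL8, 0.62 for IL1B, 0.55 for IL10 and 0.32 for TNF. Of 12014 genes with a mean of at least 1 CPM, 93.4% had a smaller SD than CXCL8, 86.7% than IL1B, 81.2% than IL10 and 51.7% than TNF, and the median gene had 0.31. In LF calves at 48 h the highest CXCL8 level was 10.3 times the lowest, and in H calves at 0 h it was 2.28 times the lowest.

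How far a calf kept its place within its breed differed between pairs of ages. After the mean of each breed and age was subtracted, CXCL8 at 48 h and at 72 h had a Pearson correlation of 0.686 over the 22 calves (Spearman 0.662), and at 72 h and 168 h one of 0.553. For 0 h and 48 h the correlation was 0.188 for CXCL8, 0.401 for IL10, 0.206 for IL1B and −0.069 for TNF. IL10 at 48 h and 72 h had a correlation of 0.604, TNF 0.453 and IL1B 0.414. At 72 h and 168 h IL10 had 0.378, TNF 0.278 and IL1B −0.114. These values are descriptions, given without a test. Subtraction of the mean of each breed and age took out breed and farm, but not the calf's own share of abundant transcripts.

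**Figure D5:**
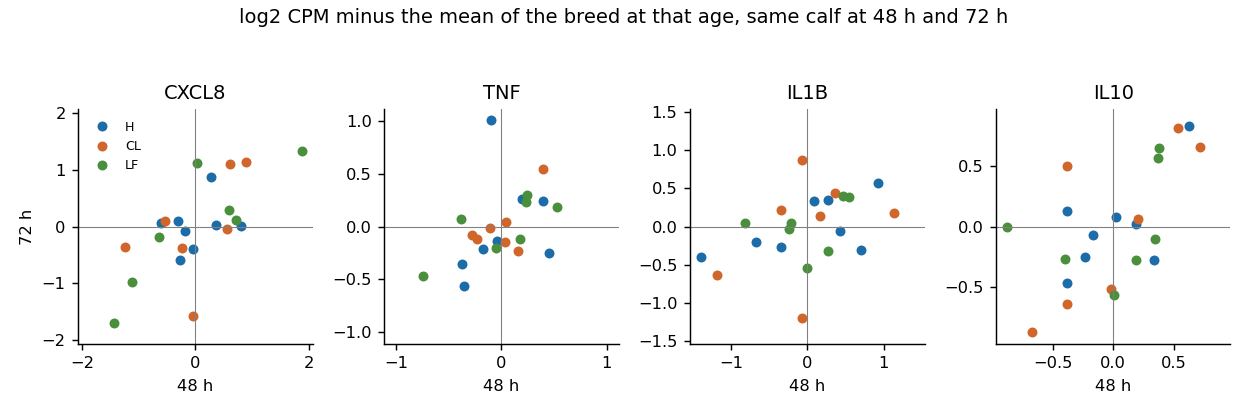
Log2 CPM of each gene at 48 h (x axis) and at 72 h (y axis) in the same calf, after subtraction of the mean of its breed at that age, with 1 point for each of the 22 calves. CXCL8 and IL10 points lay along the rising diagonal, with Pearson correlations of 0.686 and 0.604, and TNF and IL1B points less so, with 0.453 and 0.414.

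The 4 genes did not follow a single pattern across the 88 libraries. CXCL8 and TNF had a Pearson correlation of log2 CPM of −0.468, and −0.198 after the mean of each breed and age was subtracted. IL1B and IL10 had 0.365 (0.185 after subtraction), IL1B and CXCL8 0.28 (0.208), CXCL8 and IL10 0.281 (−0.013), TNF and IL10 −0.105 (−0.169), and TNF and IL1B −0.069 (0.005). Among 12013 other genes, the one most like CXCL8 was ENSBTAG00000023026, with a correlation of 0.817 that was 0.408 after subtraction of the group means. The one most like IL1B was ENSBTAG00000031814 (0.861, and 0.79 after subtraction), the one most like IL10 was ENSBTAG00000012697 (0.791 and 0.695) and the one most like TNF was ENSBTAG00000023730 (0.742 and 0.707). No other cytokine gene of the 4 was among the 3 genes most like any of them. The libraries share calves and differ in depth and in the share of abundant transcripts, and these correlations are given without a test.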

How the data were processed

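Whole blood RNA of 22 calves at 4 ages was sequenced as 88 single-end mRNA libraries without strand information. The authors trimmed the reads with cutadapt, checked them with FastQC, mapped them to UMD3.1 with STAR and rejected libraries with few reads. The authors deposited raw read counts per Ensembl gene as STAR gives them, and the unstranded count was used here. STAR leaves out reads that fall on several genes or map to several places. In ARS-UCD2.0, TNF and IL10 each overlap 1 other gene. The counts of both strands summed to 100.05% (TNF) and 100.0% (IL10) of the unstranded count.

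Breed and age came from the sample labels, and the calf from its tag number. No pair of libraries within a group agreed within sampling noise (smallest chi-square per degree of freedom 33.95), and all 88 were used. The calf pairs samples across ages. Deviations from the group mean, over 12014 genes, correlated by 0.229 to 0.606 on average within a calf. The averages between calves, −0.101 to −0.037, are made negative by the subtraction of the mean and are no yardstick. From 0 h to 48 h the later sample correlated best with its own calf in 8 of 8 H, 7 of 7 CL and 7 of 7 LF calves. From 72 h to 168 h it did so in 6 of 8 H, 4 of 7 CL and 5 of 7 LF calves, and the lowest value within a CL calf was −0.141.

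Tests used edgeR 4.0.16 in R 4.3.3 (quasi-likelihood, robust, TMM, filterByExpr), and each fit held just the groups being compared. The calf was not in the main model, so that comparisons of ages were unpaired. A call needed a Benjamini-Hochberg adjusted p-value under 0.05 over all genes tested and a fold change of at least 1.5. SE is the log2 fold change divided by the square root of F. Log2 CPM used a prior count of 2. The median log2 change of all genes lay between −0.0447 and 0.0388 in all comparisons. The tests were tested on simulated counts. Alternatives were DESeq2 1.42.0, RLE normalization, no filter, no fold threshold, all 88 samples in 1 fit without or with the L number of the library (a number in the label whose meaning is not given in the sources used here), the calf as a block, omission of 9 libraries with a final R in the label, and omission of each calf in turn.

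The 4 genes and all lists were chosen with earlier results of these data known. The genes to be named besides the 4 were the 3 most correlated with each, of which the first is given. Lists of cytokine receptors and targets, markers of blood cells and hemoglobin genes were fixed by symbol and could not be matched, since no table used here pairs Ensembl identifiers with symbols; the symbols of the 4 genes came with their identifiers. No sequences are shown, because none were at hand for these genes.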

Additional observations from a re-analysis of the deposited data

Results flagged for a closer look

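In 7 of 48 groups of 1 gene, breed and age, 1 calf lay apart from the others by more than Dixon's 95% critical value for the gap at the end of a range, where chance alone marks about 1 group in 20 if values are normally distributed. Levels in CPM are skewed to high values, and on the log2 CPM scale, tried after seeing the data, 4 of the 7 stayed past the critical value. TNF was 28.9 CPM in H calf 5 at 72 h (next highest 17.2), 27.5 CPM in CL calf 2 at 72 h (next 19.4) and 25.9 CPM in LF calf 4 at 168 h (next 18.1). CXCL8 was 27.5 CPM in H calf 8 at 72 h (next 16.1) and 28.6 CPM in LF calf 5 at 48 h (next 12.7). IL10 was 4.10 CPM in H calf 1 at 72 h (next 2.49) and 6.54 CPM in LF calf 6 at 0 h (next 2.25). In all 7 the calf that stood apart was the highest of its group. The 3 that were not past it on the log2 scale were TNF in H calf 5 at 72 h (gap of 0.473 of the range, critical value 0.526), TNF in LF calf 4 at 168 h (0.475, critical value 0.568) and CXCL8 in LF calf 5 at 48 h (0.352, critical value 0.568).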

How the results depend on the processing

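Over settings other than leaving out a calf, 947 of 976 values for single genes kept their side of the threshold, 12 lost a call, 17 gained one, and 0 called values reversed. Over the fits without 1 calf, 896 of 928 values did so, 21 lost a call and 11 gained one. Values that were not called had another sign in 24 and 33 cases. The cause of these changes was not tested.

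Without a fold threshold, TNF was added in 6 comparisons: 2 genes were then called at 48 h against 0 h in H calves, 3 at 0 h, 3 at 48 h and 2 at 168 h between H and beef calves, 3 at 48 h against 0 h over the 3 breeds and 1 at 72 h against 48 h over the 3 breeds. With all 88 samples and the L number in the fit, 2 genes were called at 48 h against 0 h in H calves (TNF added), 1 at 168 h against 0 h in CL calves (IL10 lost, adjusted p = 0.0508), 1 at 48 h against 0 h in LF calves (IL1B lost, 0.0504), and between H and beef calves 1 at 0 h (CXCL8 lost, 0.125), 2 at 72 h (CXCL8 added) and 0 at 168 h (IL1B lost, 0.105). With all 88 samples and no L number, the counts were 1 at 168 h against 0 h in CL calves (IL10 lost, 0.0672), 2 in LF calves (IL10 added, 0.0281) and 2 between H and beef calves at 72 h (CXCL8 added). DESeq2 called 2 genes at 168 h against 0 h in LF calves (IL10 added), against 14.6% of all genes. It called 1 between CL and LF calves at 48 h (IL10), against 4.29% of all genes, where edgeR had 0%. Between H and beef calves at 72 h it called 2 (CXCL8 added), against 8.52%. These DESeq2 shares count genes called higher or lower, whereas the edgeR shares given with calls above count the direction of the call. In that direction DESeq2 called 1338 of 15579 genes lower in LF calves and 489 of 13514 lower in CL than in LF calves. Between H and beef calves at 72 h it called 709 of 14447 genes higher. The share of all genes called was kept for DESeq2 and for the calf as a block, and not for the other alternatives or the fits without 1 calf. At 168 h against 0 h in H calves, 1 gene was left with no filter on low counts, without the R libraries, or with library sizes free of the 10 most abundant genes, a setting chosen after seeing the data (IL10 lost, adjusted p = 0.0642, 0.0542 and 0.0506). Without the R libraries, 1 was left at 168 h against 0 h in CL calves (IL10 lost, 0.0687) and 0 between H and beef calves at 168 h (IL1B lost, 0.0819). With the calf as a replicate block, 1 gene was left at 48 h against 0 h over the 3 breeds (IL1B lost, its fold below the threshold). That fit called 15.5% of all genes there, higher or lower, and the block changed no other call of the 4 genes. In that comparison TNF was called with no filter (log2 change 0.61), and without the R libraries TNF was called (0.61) and IL1B was not (0.57). IL10 was called between H and beef calves at 0 h with all 88 samples in the fit (adjusted p = 0.0334) and without the R libraries (0.04).

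When 1 calf was left out, the number of genes called at 168 h against 0 h ran from 1 to 2 in H and in CL calves. At 48 h against 0 h it ran from 1 to 2 in CL and from 0 to 3 in LF calves. Between CL and LF calves at 48 h it ran from 0 to 1, and between H and beef calves from 2 to 3 at 0 h, from 1 to 2 at 72 h and from 0 to 1 at 168 h. Leaving out a calf was not run for the changes over the 3 breeds, and leaving out hemoglobin genes was not run, as they could not be matched. IL10, with a median of 47 reads per library, is the gene whose small differences depth limits most.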
